A study of Mus musculus with 24 samples.

Results

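Some stretches of chromatin were open in both cartilages of the mouse embryo and in the younger jaw, and overlapped a listed peak of the histone mark H3K27ac in 1 cartilage and not in the other. These regions are described here. All ATAC-seq peaks of 8 libraries on the autosomes and X were merged into 157305 regions, of which 15788 had a peak in all 8 libraries and are called always open. Of these, 5491 lay over 1 kb from both ends of every protein-coding gene in mm10 and are called distal. In the authors' combined H3K27ac lists, 579 of the 5491 overlapped a peak of Meckel's cartilage alone (MC-marked) and 189 overlapped a peak of forelimb cartilage alone (FL-marked), 768 in all. A further 3981 overlapped a peak in both lists and 742 in neither. The members were thus chosen by the measured peak lists, marking in 1 cartilage included, which is given as a description with no test.

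ATAC-seq, which finds open chromatin with a transposase, was done on 3 libraries of E14.5 Meckel's cartilage (MC), 3 of E14.5 forelimb cartilage (FL) and 2 of the E12.5 mandible, all from wild-type C57BL/6 embryos. H3K27ac was profiled by CUT&Tag, which brings a transposase to an antibody-bound mark, in 3 MC and 3 FL libraries of the same stage and strain. The source is given as chondrocytes, from dissected and digested cartilage, and no label states whether replicates were different embryos or pools, so p-values measure the spread between these libraries, which may be technical. The E12.5 libraries are titled as ATAC-seq of that stage, although their description names a different assay and stage, and the titles were followed. The MC ATAC lists held 43205 to 54192 peaks, the FL lists 47152 to 70636 and the E12.5 lists 70042 and 74706. Replicate 1 of E12.5 stands apart, with 85.6 Mb covered against 40.7 to 53.0 Mb in the other 7 ATAC lists. Sequencing depth is unknown, since the lists carry no read counts.

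Meckel's cartilage is the rod of cartilage that forms in the lower jaw from cranial neural crest cells, while limb cartilage forms from lateral plate mesoderm. H3K27ac is a mark of active enhancers and promoters. A site can be open without it, and such open but unacetylated sites are often described as primed or poised.

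Several distal regions hold a transcript start of RefSeq, because the rule looked at the ends of whole gene spans and not at inner or non-coding starts. RefSeq windows of 250 bases before to 50 bases after a start (GRCm38.p6, the assembly behind mm10) are shown for 2 MC-marked and 3 FL-marked regions, since the regions' own sequence was not used here. They were chosen after their values were seen, as starts inside members that are named in the results. Each is written 5′ to 3′ on the strand of transcription, and capitals mark the dinucleotide CG, which reads the same on both strands.
Irx2 start in an MC-marked region, chr13:72628570-72628869, + strand: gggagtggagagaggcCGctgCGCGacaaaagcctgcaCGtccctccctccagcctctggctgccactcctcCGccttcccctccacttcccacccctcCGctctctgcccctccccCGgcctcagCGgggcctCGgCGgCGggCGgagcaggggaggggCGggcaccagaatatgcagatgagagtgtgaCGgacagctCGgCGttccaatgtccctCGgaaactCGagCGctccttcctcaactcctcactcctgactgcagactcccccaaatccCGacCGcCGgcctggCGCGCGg
8430419K02Rik start in the MC-marked region nearest to Meis1, chr11:18877561-18877860, - strand: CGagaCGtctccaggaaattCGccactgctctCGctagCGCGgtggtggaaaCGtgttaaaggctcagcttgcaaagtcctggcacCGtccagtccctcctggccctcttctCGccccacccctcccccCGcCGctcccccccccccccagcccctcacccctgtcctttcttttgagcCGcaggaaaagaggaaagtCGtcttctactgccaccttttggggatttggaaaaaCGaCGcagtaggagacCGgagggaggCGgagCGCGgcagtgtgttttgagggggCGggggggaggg
Hlcs start in an FL-marked region, chr16:94290242-94290541, - strand: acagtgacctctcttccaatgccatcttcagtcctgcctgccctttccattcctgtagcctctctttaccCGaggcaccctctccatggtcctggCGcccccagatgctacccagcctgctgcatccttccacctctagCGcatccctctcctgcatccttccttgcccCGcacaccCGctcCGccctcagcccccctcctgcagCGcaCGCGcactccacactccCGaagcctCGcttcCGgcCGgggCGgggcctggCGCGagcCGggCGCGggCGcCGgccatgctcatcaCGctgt
Tiam1 start in an FL-marked region, chr16:89818303-89818602, - strand: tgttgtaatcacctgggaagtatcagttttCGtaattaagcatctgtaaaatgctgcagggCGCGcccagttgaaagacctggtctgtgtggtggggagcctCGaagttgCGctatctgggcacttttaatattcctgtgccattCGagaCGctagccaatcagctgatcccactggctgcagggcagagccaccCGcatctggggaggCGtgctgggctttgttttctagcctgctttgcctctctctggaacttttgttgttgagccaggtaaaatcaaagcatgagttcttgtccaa
Gm33631 start in the FL-marked region nearest to Ror2, chr13:53309701-53310000, - strand: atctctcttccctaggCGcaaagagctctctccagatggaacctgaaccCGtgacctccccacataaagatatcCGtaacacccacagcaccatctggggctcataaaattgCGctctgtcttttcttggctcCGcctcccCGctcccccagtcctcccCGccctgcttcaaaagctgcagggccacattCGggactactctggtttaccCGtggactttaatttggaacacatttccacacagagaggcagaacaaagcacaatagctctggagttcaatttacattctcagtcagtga
The Irx2 window holds 25 CG and the 8430419K02Rik window 20. The Hlcs window holds 22 CG, the Tiam1 window 9 and the Gm33631 window 9. At least 1 CG occurred in all 203 start windows of MC-marked and all 36 of FL-marked regions, and in 94.7% of the 32619 windows in the table.

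The MC-marked regions were more numerous in the lists as given. Their H3K27ac peaks had a lower total signal and were narrower than those of FL-marked regions. By median, the whole MC list differed from the whole FL list in the same directions. The order of the numbers of regions reversed under a floor of signal that removed peaks from the MC list alone. MC-marked regions made up 10.5% of always-open distal regions and FL-marked regions 3.44%. Among distal regions open in fewer than 8 lists the shares were 9.02% for MC alone and 10.1% for FL alone, and among always-open regions within 1 kb of a gene end they were 10.9% and 1.10%. The lowest total signal listed was 16925 in the MC list and 25799 in the FL list, in the authors' units. The peak over an MC-marked region had a median total signal of 25283, against 32303 over the whole MC list, and 292 of the 579 (50.4%) were below the lowest FL peak. A peak of FL below its list's lowest would not have been listed. The peak over an FL-marked region had a median of 41604, against 46516 over the whole FL list. The median highest signal was 18 in both classes, against 16 over the whole MC list and 18 over the whole FL list. The median peak width was 4.29 kb over MC-marked regions, against 5.51 kb over the whole MC list. It was 7.26 kb over FL-marked regions, against 7.36 kb over the whole FL list. With both lists held to a total signal of at least 25799, there were 287 MC-marked and 467 FL-marked regions. With the same number of H3K27ac peaks taken from each list, there were 446 MC-marked and 275 FL-marked regions. Both settings removed MC peaks alone, leaving 29685 and 39914 of 47549. They could only lower the MC-marked and raise the FL-marked number, so the direction of these shifts is no finding. Whether total signal is on the same scale in both lists is not known. Regions marked in both lay under peaks of higher total signal, with medians of 96430 in MC and 126006 in FL.

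**Figure D1:**
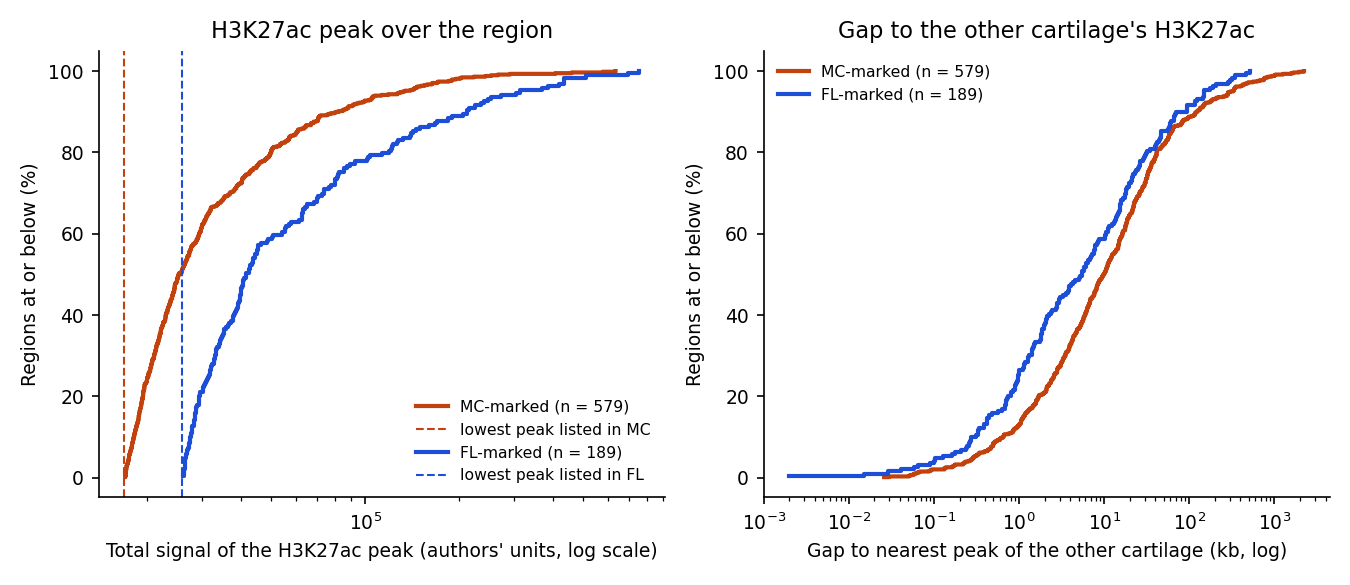
Cumulative share of MC-marked and FL-marked regions (y axis, %) by the total signal of their H3K27ac peak (left, authors' units, log axis) and by the gap to the nearest H3K27ac peak of the other cartilage (right, kb, log axis). Dashed lines mark the lowest peak of each list, 16925 in MC and 25799 in FL, and the MC-marked curve starts below the FL line.

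The mark of the other cartilage was often close by. The nearest FL peak was a median of 9.95 kb from an MC-marked region, and the nearest MC peak a median of 5.46 kb from an FL-marked region. It lay within 1 kb of 76 MC-marked regions (13.1%) and 49 FL-marked regions (25.9%), and beyond 50 kb of 105 (18.1%) and 28 (14.8%). At the edge of the rule, 12 MC-marked and 7 FL-marked regions missed the other cartilage's peak by at most 100 bp. Just past that edge, 9 regions counted as marked in both had at most 100 bp under FL H3K27ac and 6 had at most 100 bp under MC H3K27ac. At the edge of distance, 6 MC-marked and 1 FL-marked regions lay at most 1100 bp from a gene end, the nearest at 1031 and 1036 bp. The mark usually covered the region, with 84.1% of MC-marked and 86.8% of FL-marked regions fully inside their peak.

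The H3K27ac lists of single libraries did not separate the classes. A peak of a single library overlapped 5.41% ± 0.997 of MC-marked regions in MC libraries and 5.47% ± 0.654 in FL libraries (SD, n = 3 each). For FL-marked regions the shares were 4.76% ± 1.40 in MC libraries and 5.29% ± 0.916 in FL libraries (SD, n = 3 each). The ranges of MC and FL libraries overlapped for both classes. For regions marked in both combined lists the mean shares were 8.48% in MC and 8.52% in FL libraries. For regions marked in neither they were 4.49% and 5.26%. The single lists thus missed most regions marked in both as well, so they cannot check the marking of either class. Each single list covered 51.9 to 55.8 Mb, against 407.7 Mb in the combined MC list and 454.4 Mb in the combined FL list. How the combined lists were made is not given in the sources used here, so marking in 1 cartilage has no replicate check.

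By position, the classes had similar medians. Their median widths were 1640 bp for MC-marked and 1457 bp for FL-marked regions, against 2050 bp for regions marked in both and 1275.5 bp for those marked in neither. They lay inside a protein-coding gene span in 46.3% and 45.5% of cases, against 61.2% of those marked in both and 43.0% of those marked in neither; exons and introns were not told apart. The median distance to a gene end was 19.5 kb for MC-marked and 23.4 kb for FL-marked regions. The X chromosome held 3.63% of MC-marked and 3.17% of FL-marked regions, against 0.955% of those marked in both and 4.04% of those marked in neither. The ATAC summit moved by a median of 39 bp between MC and FL in MC-marked regions and 47 bp in FL-marked regions, and stayed within 100 bp in 73.9% and 76.7%.

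RefSeq starts lay inside a larger share of MC-marked than FL-marked regions, given here without a test. A start was found in 154 of 555 MC-marked regions (27.7%) and 26 of 183 FL-marked regions (14.2%), with chromosome 18 not used here. The share was 24.6% over all distal always-open regions, 25.8% of those marked in both and 18.4% of those marked in neither. The start belonged to a protein-coding gene in 100 MC-marked and 17 FL-marked regions, and to other genes alone in 54 and 9. The windows at these starts had a median observed to expected CG ratio of 0.635 in MC-marked and 0.494 in FL-marked regions. It was 0.663 in regions marked in both, 0.607 in those marked in neither and 0.387 over all starts in the table. In always-open regions within 1 kb of a gene end it was 0.792. The ratio was above 0.6 in 55.7% and 38.9% of them, against 11748 of the 32619 starts in the table. The median distance from summit to start was 134 bp in MC-marked and 118 bp in FL-marked regions. Keeping regions over 1 kb from every start, an alternative chosen after seeing the data, left 393 MC-marked and 153 FL-marked regions.

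**Figure D2:**
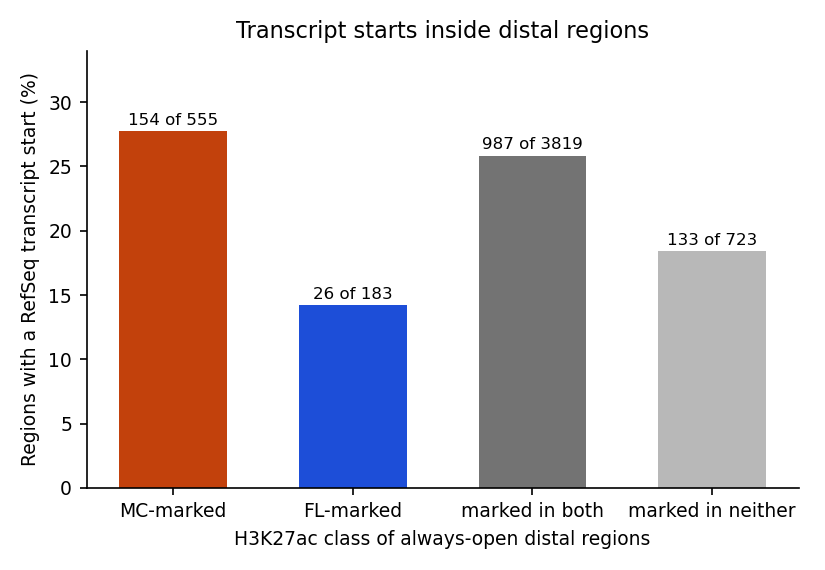
Share of always-open distal regions that hold a RefSeq transcript start (y axis, %), by H3K27ac class, chromosome 18 not used; numbers above bars are regions with a start of all regions. MC-marked regions reach 27.7% and FL-marked regions 14.2%.

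The rule asked for a peak in all 8 lists, so being open in both cartilages is no finding. The width of the open part and its peak score could still differ. Peak cover, the kb of a region under ATAC peaks, had a median over MC-marked regions of 1.02 ± 0.0825 kb in MC libraries and 0.959 ± 0.068 kb in FL libraries (SD, n = 3 each), and of 0.872 and 0.955 kb in the E12.5 libraries. Over FL-marked regions it was 0.854 ± 0.0603 kb in MC libraries and 0.789 ± 0.0735 kb in FL libraries (SD, n = 3 each), and 0.811 and 0.825 kb in the E12.5 libraries. The MC and FL library medians overlapped in both classes. By the authors' peak score, summed over the peaks in a region, members were among the weaker always-open regions, as were those marked in neither. The median percentile per library was 24.2 to 29.5 for MC-marked and 12.9 to 20.6 for FL-marked regions. It was 30.5 to 41.5 for those marked in both and 14.8 to 24.8 for those marked in neither. Always-open regions within 1 kb of a gene end had 57.4 to 60.7.

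**Figure D3:**
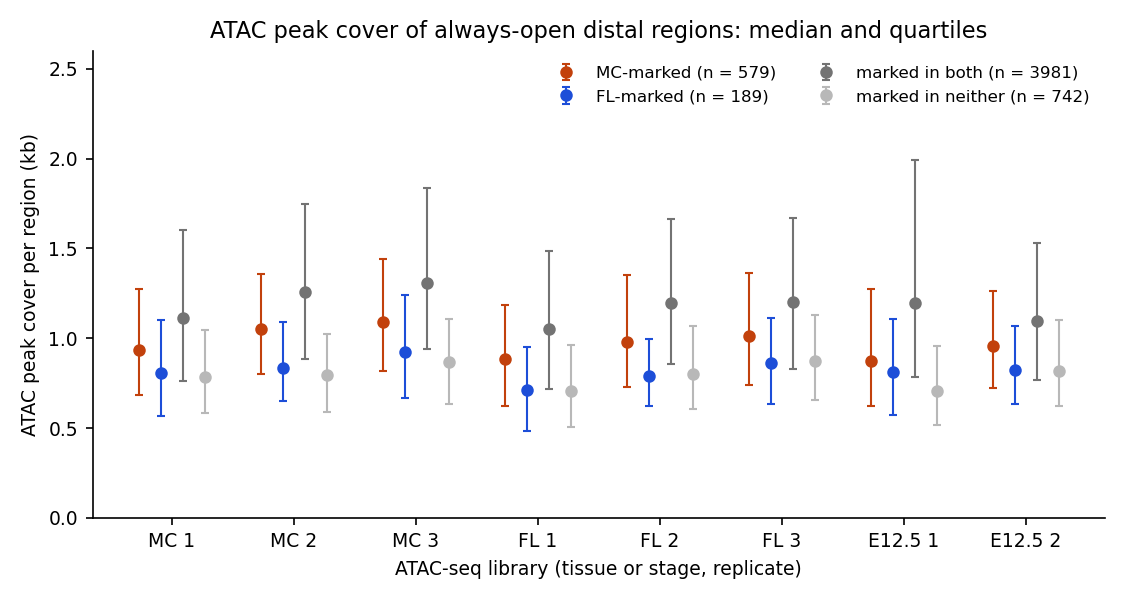
ATAC peak cover per region (y axis, kb) in each ATAC library (x axis) for 4 H3K27ac classes of always-open distal regions; points are medians and bars the quartiles over regions. MC-marked medians lie at 0.872 to 1.09 kb and FL-marked medians at 0.714 to 0.922 kb in the 8 libraries.

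MC was compared with FL over all 15788 always-open regions, with cover scaled to the same total in each library, log2(kb + 0.1) values, limma and Benjamini-Hochberg adjustment. No region passed an adjusted p of 0.05 (0% called in either direction), and 1232 had an unadjusted p under 0.05, among them 51 MC-marked and 14 FL-marked regions. The smallest adjusted p was 0.179 among MC-marked and 0.203 among FL-marked regions. The median log2 difference was -0.01 over MC-marked and 0.03 over FL-marked regions, against -0.04 over all always-open regions. MC libraries lay wholly above FL libraries in 33 MC-marked regions (5.70%) and 9 FL-marked regions (4.76%), against 5.36% of all always-open regions. They lay wholly below in 48 (8.29%) and 10 (5.29%), against 7.89%. These shares are close to the background in both classes. In simulated data this fit missed most planted changes, so the absence of calls does not show that cover was alike.

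**Figure D4:**
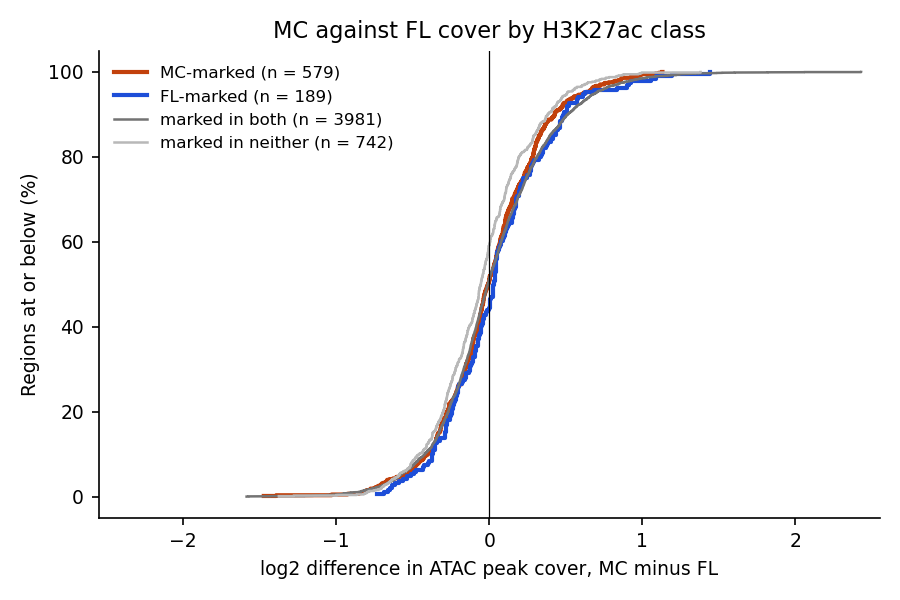
Cumulative share of regions (y axis, %) by log2 difference in ATAC peak cover, MC minus FL (x axis), for 4 H3K27ac classes. The curves lie close together, with medians of -0.01 for MC-marked and 0.03 for FL-marked regions.

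The members with the smallest p in this comparison, 5 of each class, went both ways among MC-marked regions and one way among FL-marked regions. At Nr5a2, a nuclear receptor gene, an MC-marked region (chr1:136947454-136950291, inside the gene) had 2.13, 2.30 and 2.84 kb in MC, 0.921, 1.25 and 1.17 kb in FL, plus 1.03 and 1.16 kb at E12.5. All MC libraries were above all others, and the log2 difference from FL was 0.97 ± 0.17 (SE; limma, adjusted p = 0.179). The MC-marked regions in Clmn and Plcb2, which encodes a phospholipase C, also had every MC library above every FL library, with log2 differences of 0.99 and 1.13. In contrast, MC-marked regions in Ppp2r2b, a phosphatase subunit gene, and nearest to Ankrd1 had every MC library below every FL library, with log2 differences of -0.80 and -1.39. Their MC H3K27ac peaks had total signals of 23028 and 19450, below the lowest FL peak listed (25799). Those at Nr5a2, Clmn and Plcb2 were above it. All 5 of these FL-marked regions had wider cover in MC. Over all FL-marked regions, MC libraries lay wholly above FL libraries in 9 and wholly below in 10. An FL-marked region in Mlxipl, the gene of a carbohydrate-responsive transcription factor (chr5:135131277-135135837), had 1.88, 1.53 and 2.44 kb in MC, 0.722, 0.829 and 0.652 kb in FL, plus 4.56 and 0.997 kb at E12.5. MC and FL libraries did not overlap, and the log2 difference was 1.20 ± 0.23 (SE; limma, adjusted p = 0.203). The FL-marked region at the Hlcs start printed above (chr16:94289155-94290904; Hlcs attaches biotin to carboxylases) had 1.47, 1.56 and 1.59 kb in MC, 0.571, 0.693 and 0.916 kb in FL, plus 1.02 and 1.46 kb at E12.5. The MC values were again above all FL values. The FL-marked regions nearest to Npnt, an extracellular matrix gene, and in Tjp3, a tight junction gene, and Nfia, a transcription factor gene, had log2 differences of 1.06, 1.44 and 1.09. The 43447 regions with a peak in at least 3 of the 6 lists were also fitted together. There limma called 680 wider in MC and 2571 narrower at an adjusted p under 0.05. Of the MC-marked regions these included Nr5a2, Clmn and Plcb2 wider and Ppp2r2b narrower, and of the FL-marked regions Mlxipl, Npnt and Hlcs wider. That set admits regions with a peak in 1 cartilage alone, which pass the filter through that cartilage. These calls therefore depend on which regions were fitted together, and are no added support for the named regions.

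Between E14.5 MC and E12.5, again no region passed an adjusted p of 0.05 with limma (0% called in either direction; 652 at an unadjusted p under 0.05). In simulated data this fit recovered no planted change, so nothing can be read from the absence of calls. The median log2 difference was 0.12 over MC-marked and 0.06 over FL-marked regions, against 0.09 over all always-open regions. E14.5 MC libraries lay wholly above E12.5 in 87 MC-marked regions (15.0%) and 24 FL-marked regions (12.7%), against 11.4% of all. They lay wholly below in 32 (5.53%) and 6 (3.17%), against 5.79%. The direction of the medians rests on 1 library: without E12.5 replicate 1 they were -0.04 over MC-marked, -0.06 over FL-marked and -0.05 over all regions, and without E12.5 replicate 2 they were 0.31, 0.20 and 0.23.

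Gene lists were counted over always-open distal regions by the gene that contains each or lies nearest, which does not show which gene a region acts on. Of 29 such regions at mandibular genes, 6 were MC-marked (20.7%) and none FL-marked, 8 were marked in both (27.6%) and 15 in neither (51.7%). Over all always-open distal regions 10.5% were MC-marked, 3.44% FL-marked, 72.5% marked in both and 13.5% in neither. Of the 11 other lists, 6 also had no FL-marked region, and 1 region moves the share of such small lists greatly.

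The MC-marked regions included 2 at Irx2, an Iroquois homeobox gene, and 1 each at Eya1, a coactivator gene, and at the transcription factor genes Foxc1 and Nr2f1. At Irx2 the region with the printed start (chr13:72627129-72629619) had 1.49, 1.63 and 2.43 kb in MC, 1.24, 2.15 and 1.82 kb in FL, plus 2.13 and 1.42 kb at E12.5. The groups overlapped, and the nearest FL H3K27ac peak was 346 kb away. The second Irx2 region had a nearest FL peak 335 kb away. The region nearest to Nr2f1, a nuclear receptor gene (chr13:78202542-78204903), had 1.96, 1.63 and 2.30 kb in MC, 0.976, 1.11 and 1.30 kb in FL, plus 0.799 and 1.80 kb at E12.5. All MC libraries were above all FL libraries, although the adjusted p was 0.425 (log2 difference 0.66 ± 0.19, SE, limma). The nearest FL peak lay 220 kb away. The MC peak had a total signal of 22271 at Nr2f1, below the lowest FL peak listed (25799), and 25906 at the second Irx2 region. It was 40255 at the first Irx2 region, 71543 at Eya1 and 253385 at Foxc1. A gap to the nearest listed FL peak cannot show that a peak below that lowest signal was absent. The gap was 39.6 kb at Eya1 and 0.603 kb at Foxc1, against the class median of 9.95 kb.

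Limb genes were near the background share of regions marked in both. Among 26 regions at limb patterning genes other than Hox, 1 was MC-marked, 2 FL-marked, 18 marked in both (69.2%, against 72.5% of all) and 5 in neither. The FL-marked ones were nearest to Osr1, a zinc finger gene, and in Tbx15, a T-box gene of limb and skeletal growth. The Tbx15 region (chr3:99252556-99254618) had 1.14, 0.694 and 1.46 kb in MC, 1.32, 1.01 and 1.69 kb in FL, plus 1.48 and 1.54 kb at E12.5. Its libraries overlapped, its FL peak had a total signal of 419438, and the nearest MC peak was 60.2 kb away. The MC-marked one was next to Meis1, a homeobox cofactor gene that is also known in the limb, at chr11:18876124-18878420. It had 0.81, 0.331 and 1.73 kb in MC, 1.92, 1.88 and 1.19 kb in FL, plus 1.38 and 1.87 kb at E12.5. The libraries overlapped (log2 difference -1.03 ± 0.46, SE; limma, adjusted p = 0.637). Of 3 regions at Hox genes, 1 was FL-marked, nearest to Hoxc4, and none MC-marked.

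Of 26 regions at cartilage genes, 22 were marked in both (84.6%, against 72.5% of all), 2 were MC-marked and 1 FL-marked, and all 3 marked alone lay in or near Zbtb20, a zinc finger repressor active in hypertrophic chondrocytes. The MC-marked region at chr16:43502719-43504403 had 0.72, 1.16 and 0.865 kb in MC, 1.13, 1.44 and 1.47 kb in FL, plus 0.694 and 1.03 kb at E12.5. The highest MC value was just above the lowest FL value, and after scaling every MC library was below every FL library (log2 difference -0.61 ± 0.22, SE; limma, adjusted p = 0.547). Of 22 regions at hypertrophy and osteoblast genes, 2 were MC-marked, 1 of them in Mef2c, a regulator of chondrocyte hypertrophy, and none FL-marked. Of 58 at BMP, TGF-beta, FGF and Wnt signalling genes, 48 were marked in both (82.8%), 6 were MC-marked (the Wnt feedback gene Axin2, the ligand genes Gdf6 and Wnt5b, the receptor gene Fgfr2 and the nuclear effectors Lef1 and Tcf7l2) and 1 was FL-marked (Ror2, a Wnt receptor gene). The MC peaks at Axin2, Gdf6 and Lef1 had total signals of 23035, 17117 and 20656, below the lowest FL peak listed (25799). Those at Fgfr2, Tcf7l2 and Wnt5b were above it. The Ror2 region with the printed Gm33631 start had 1.54, 1.30 and 1.33 kb in MC, 0.97, 1.46 and 1.39 kb in FL, plus 1.14 and 1.39 kb at E12.5, with overlapping libraries.

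Markers of other cell types were MC-marked about as often as all distal regions. Of 28 always-open distal regions at muscle, endothelium, blood, epithelium and neuron genes, 3 were MC-marked (10.7%, against 10.5% of all), at Flt1 (endothelium), Spi1 (blood) and Cldn4 (epithelium), and none was FL-marked. Their part in the result was not tested, and in bulk tissue fewer marked cells and less mark per cell cannot be told apart.

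**Figure D5:**
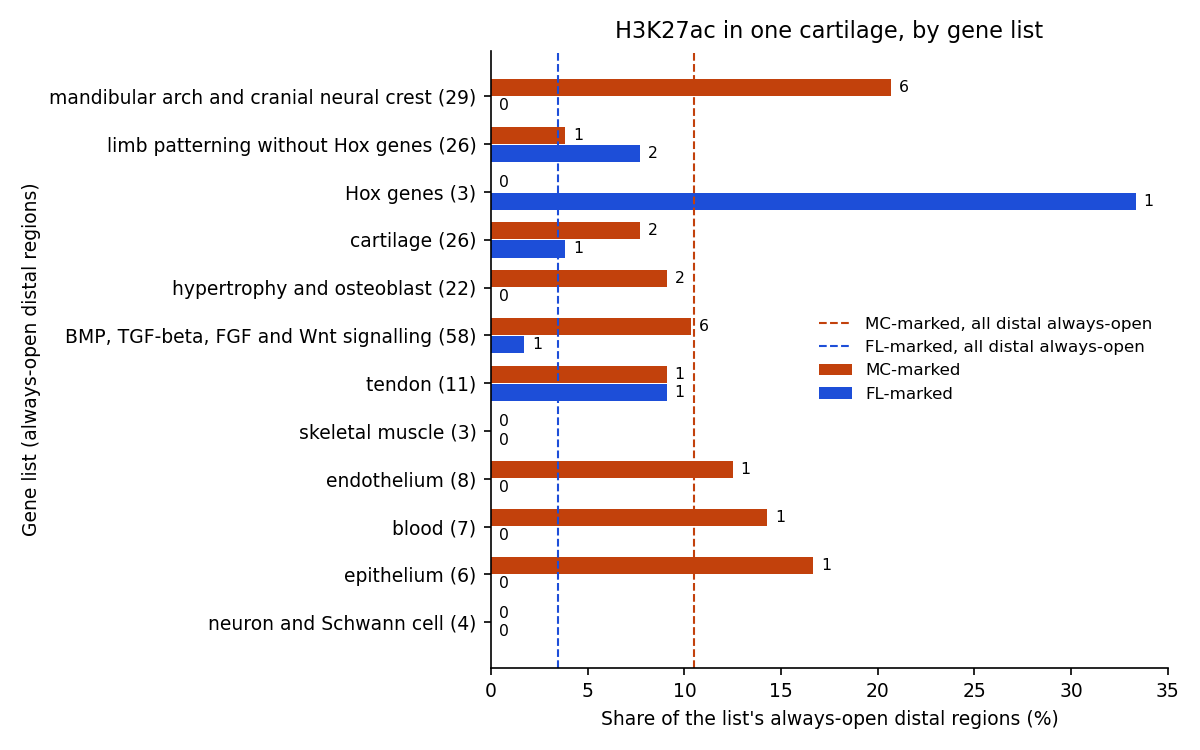
Share of each gene list's always-open distal regions (x axis, %) that were MC-marked (upper bar) or FL-marked (lower bar), with the number of regions beside each bar and the list's region count in brackets; dashed lines give the shares over all always-open distal regions, 10.5% and 3.44%. The mandibular list has 6 MC-marked and 0 FL-marked of 29, and lists of few regions move by large steps.

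The members were spread over many genes. MC-marked regions lay in or nearest to 555 genes and FL-marked regions to 184, and 13 genes had both kinds, among them Zbtb20 and Hlcs. Camta1, a calmodulin-binding transcription activator gene, had 4 MC-marked regions, and no other gene had more than 2. Genes with 2 included Nrg1, a growth factor gene, Tenm3, Bcor and Irx2 for the MC mark, and Tjp3, Mlxipl, Tmtc1, Tiam1 and Dtna for the FL mark. Of the MC-marked genes 28.8%, and of the FL-marked genes 34.8%, also had a region marked in both. The highest total signal over an MC-marked region was 634921, near Mn1, a transcriptional regulator gene, and over an FL-marked region 755562, in Tsks. The nearest peak of the other cartilage lay 2.26 kb away at Mn1 and 1.55 kb away at Tsks.

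Regions open in 1 cartilage alone were looked for around the members. A region with a peak in all 3 MC lists and no FL list lay within 100 kb of 46 MC-marked (7.94%) and 19 FL-marked regions (10.1%), against 10.7% of all distal always-open regions. A region with a peak in all 3 FL lists and no MC list lay within 100 kb of 93 MC-marked (16.1%) and 51 of the 189 FL-marked regions, against 21.5%. In the gene deserts beside Sox9, a master gene of cartilage, between Gm11677 and Slc39a11, 2 distal always-open regions were found, 1 marked in both and 1 FL-marked. The FL-marked one (chr11:113172049-113173247) had 1.00, 0.798 and 0.80 kb in MC, 0.739, 0.951 and 0.834 kb in FL, plus 0.86 and 0.41 kb at E12.5. Its libraries overlapped, and the nearest MC H3K27ac peak was 0.264 kb away.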

How the data were processed

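The tools named in the submitters' processing notes are Trim Galore, Bowtie2, SAMtools, Genrich and SEACR, with mm10 as the build; their order, versions and thresholds are not given in the sources used here. The authors' deposited ATAC lists give each peak a score (none under 200) and a −log10 p, and the deposited H3K27ac lists give a total and a highest signal per peak, which were used only to describe and rank peaks. The authors' combined lists are pooled, with no SD, n or test.

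Peaks of the 8 per-library ATAC lists on the autosomes and X were merged, adjoining peaks included. Distance was taken from both ends of 21627 protein-coding gene spans of GRCm38.p6, and 1 bp of overlap counted as marked. Peak cover was scaled to the same total over always-open regions, and log2(kb + 0.1) was fitted with limma 3.58.1 in R 4.3.3 (trended variance, statmod 1.5.0), unpaired, with Benjamini-Hochberg adjustment over 15788 regions. The cover fits were tested on simulated data, where that of MC against FL recovered the larger planted changes in part and that of E14.5 MC against E12.5 recovered none. Tables were handled in Python 3.11.15 with numpy 2.4.6 and pandas 2.3.3, and figures were drawn with matplotlib 3.10.9.

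Named regions are, per class, those of the 10 genes with most members, the 10 under the strongest H3K27ac peaks, the 5 of smallest p, genes of the lists (up to 4 per list and class), and those beside Sox9; the text gives a part of them. Where a list had more than 4 marked genes the others were named too, with their values known, as were the printed start windows. The members and gene lists were chosen with earlier results of these data known. Alternatives tried were other overlaps, distances, floors and list lengths for the members, other pseudocounts, scalings, filters and measures for the fits, a replicate block, and leaving out each library. Hi-C and 4C samples were not used here, and 1 region counted in the gene lists is not reported here by name.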

Additional observations from a re-analysis of the deposited data

How the results depend on the processing

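Marking rests on pooled lists whose lowest peaks differ, peak lists carry no read depth, and peak cover is a coarse measure of opening. Small differences were not detectable here. Of the larger changes planted in simulated data, the fit of MC against FL recovered a part. That of E14.5 MC against E12.5 recovered none. With H3K27ac peaks at or above the higher floor, which removed MC peaks alone, there were 287 MC-marked and 467 FL-marked regions. With the same number of ATAC peaks per list there were 368 and 104, and with the 6 lists of E14.5 there were 997 and 403. Leaving out 1 ATAC library in turn gave 587 to 925 MC-marked and 189 to 359 FL-marked regions, the highest of each without E12.5 replicate 1; the other alternatives stayed within 1.5 times. The cause was not tested, apart from fewer lists being asked for.

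For MC against FL, the authors' score, ranked and used in place of cover, called 14 regions higher and 3 lower in MC. Among them, 1 MC-marked and 1 FL-marked region were higher. Regions in at least 3 of the lists compared gave 680 wider and 2571 narrower, with 3 MC-marked wider, 1 MC-marked narrower and 3 FL-marked wider. That set admits regions with a peak in 1 cartilage alone. Leaving out 1 library called 0 to 3 regions wider and 0 to 1 narrower. The median difference of MC-marked regions less that of all always-open regions was 0.027, and became -0.015 with the score, 0.11 with regions in at least 3 lists and 0.063 over 1 kb from every RefSeq start. That of FL-marked regions was 0.064, and became 0.0043 with the score and 0.15 with regions in at least 3 lists. Leaving out 1 library gave 0.014 to 0.034 for MC-marked and 0.022 to 0.096 for FL-marked regions. The lowest of each came without FL replicate 1, and the highest FL-marked value without FL replicate 3. In this and the next comparison, score values are in units of ranks turned into normal scores. With regions in at least 3 lists, the median subtracted is that of all regions fitted, so the reference changes too.

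For E14.5 MC against E12.5, the median of MC-marked regions less that of all was 0.032, and became -0.0042 with quantile normalization, -0.043 with the score and -0.054 with regions in at least 3 lists; leaving out 1 library gave 0.012 to 0.075, the highest without E12.5 replicate 2. That of FL-marked regions was -0.025, and became -0.083 with quantile normalization, -0.23 with the score, -0.12 with regions in at least 3 lists and -0.067 over 1 kb from every RefSeq start. Correlations of same-numbered MC and FL libraries were low (0.063, 0.068 and 0.0095), against -0.077 to 0.022 for different numbers. A pairing by replicate number was therefore not clear. A replicate block called 0 regions for MC against FL and 0 wider and 2 narrower for E14.5 MC against E12.5.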
